A study of Mus musculus with 18 samples.

Results

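The genes described here are the 6 Fc receptor genes of mouse dendritic cells (DCs), Fcgr1, Fcgr3, Fcgr4, Fcgr2b, Fcer1g and Fcgrt. They were chosen by name, by matching the Ensembl identifiers of the read count table to these symbols, and the matching used no measured value. All 6 were found among the 54232 genes listed, and all 6 were among the 17074 genes with enough reads to be tested. Fcgr1 passed that filter on low counts through the groups in which it was high, since its mean in CD103+ DCs was at most 0.256 CPM (scaled counts, explained below).

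Fc receptors bind the constant part of antibodies and link antibody-coated antigen to phagocytes and antigen-presenting cells. The ligand-binding chains FcγRI (Fcgr1), FcγRIII (Fcgr3) and FcγRIV (Fcgr4) of the mouse are activating and signal through a shared partner, the FcR gamma chain (Fcer1g), while FcγRIIB (Fcgr2b) is inhibitory and carries its own signalling motif. The neonatal Fc receptor FcRn (Fcgrt) works inside the cell, where it pairs with β2-microglobulin, returns IgG from acidic endosomes and in DCs also takes part in the handling of IgG-bound antigen.

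The study sorted DCs for RNA sequencing, and the 18 libraries fell into 6 groups of 3. The subsets were CD11b+, CD103+ and Double+ DCs (positive for both integrins, called double-positive below), and each came from 2 tissues, the small intestinal lamina propria and the intestinal lymph node. All mice were C57BL/6J with CD11a KO, a knockout of the integrin chain encoded by Itgal. The design therefore compared the subsets and the tissues within the knockout, and every group, those used as the baseline included, carried it. Age and the number of mice behind a library were not given in the labels, and the protocol text covered steady-state and infected mice without assigning these libraries to either. The replicates were separate libraries of a group, and nothing stated that they came from separate animals, so that p-values measured the spread between libraries.

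Total counts ran from 23574292 to 46901985 per library. Itgal reads were found in all 18 libraries, at 6.45 to 26.6 CPM (CPM, the counts of a gene scaled by the TMM-adjusted library size), and the libraries analysed here held no wild-type level to set beside this. Itgam (CD11b) and Itgae (CD103) followed the subset labels within each tissue, with Itgam at a mean of 20.8 CPM in lymph node CD11b+ DCs against 0.438 CPM in lymph node CD103+ DCs, and Itgae at 5.97 against 35.4 CPM. Zbtb46, a transcription factor of conventional DCs, was present in every library at 161 to 260 CPM. The 9 lamina propria libraries carried Y-linked Ddx3y, at group means of 59.7 to 72.5 CPM, with at most 0.285 CPM of Xist, whereas all 9 lymph node libraries carried Xist, so that the sex of the mice and the tissue cannot be told apart. Replicate 3 of lymph node CD11b+ DCs and replicate 3 of lymph node double-positive DCs carried both Xist and Ddx3y, and the values of the members without both libraries are given with the results or after the tissue comparison.

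The signalling parts of the 2 chains with motifs of their own are shown because the balance of activating and inhibitory chains is what the levels below describe. The FcR gamma chain carries the activating motif (ITAM), with 2 tyrosines that are phosphorylated after receptor clustering. In transcript Fcer1g-201 it began at codon 65 of 86 and was split between exon 4 (chr1:171230067-171230072) and exon 5 (chr1:171229889-171229927), on the minus strand of GRCm38. FcγRIIB carries the inhibitory motif (ITIM) around 1 tyrosine, in exon 8 of Fcgr2b-201 (chr1:170961071-170961088, minus strand). The sequences are written 5′ to 3′ from the GENCODE vM21 transcripts, with the tyrosine codons in capitals.
Fcer1g ITAM: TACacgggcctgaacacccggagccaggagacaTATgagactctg
Fcgr2b ITIM: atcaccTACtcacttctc

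Fcgr2b, Fcgr4, Fcgr3 and Fcer1g lay together on chromosome 1 within 275749 bases (GRCm38), with Fcgr2b at chr1:170958617-170976547, Fcgr4 at chr1:171018920-171029761, Fcgr3 at chr1:171051174-171064935 and Fcer1g at chr1:171229572-171234365. Fcgr1 was at chr3:96282909-96293969 and Fcgrt at chr7:45092990-45103851. Fcgr2b and Fcgr3 share near-identical sequence in the part that codes for their antibody-binding domains. The longest identical coding stretch was 129 bases, crossing from exon 3 to exon 4 in both genes, and is shown because a read from it does not tell the inhibitory from the activating receptor.
Fcgr2b and Fcgr3 shared stretch: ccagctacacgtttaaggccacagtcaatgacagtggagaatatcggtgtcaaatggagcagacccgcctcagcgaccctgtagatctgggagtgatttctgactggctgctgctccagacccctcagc

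Of the 75-base windows of Fcgr3-201, 94 of 1273 (7.38%) were also present in Fcgr2b, and none in any other gene. In Fcgr2b-201, 321 of 3470 windows (9.25%) were present in another gene, and the transcripts of the other members had no such window. Reads that lie wholly in these windows could be lost or split under unique alignment, so that the counts of Fcgr2b and Fcgr3 are uncertain to that extent. Fcgr2b also shared 155 exon bases (2.68%) with the antisense gene Gm38204, which had 0 counts in every group.

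The 5 genes of the Fcγ receptor system, Fcgr1, Fcgr3, Fcgr4, Fcgr2b and Fcer1g, had their lowest mean in CD103+ DCs in both tissues, although CD103+ and double-positive DCs overlapped for Fcgr4 in the lymph node. Fcgr3 was called lower in the lymph node than in the lamina propria in each subset, by 16.5-fold in double-positive DCs, although its call in CD103+ DCs was lost without single libraries. Fcgr4 was called lower in CD11b+ and double-positive DCs, the former also lost without single libraries. Fcgr1 was called lower in double-positive DCs, a call lost without both lymph node libraries that carried Xist and Ddx3y. The gamma chain differed from them in CD103+ DCs, where Fcer1g was 3.91-fold higher in the lymph node than in the lamina propria. Fcgrt varied least, by 2.60-fold between its highest and its lowest group mean, and had its highest mean in the group where Fcer1g was lowest. In bulk libraries of sorted cells, fewer expressing cells and less RNA per cell cannot be told apart.

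**Figure D1:**
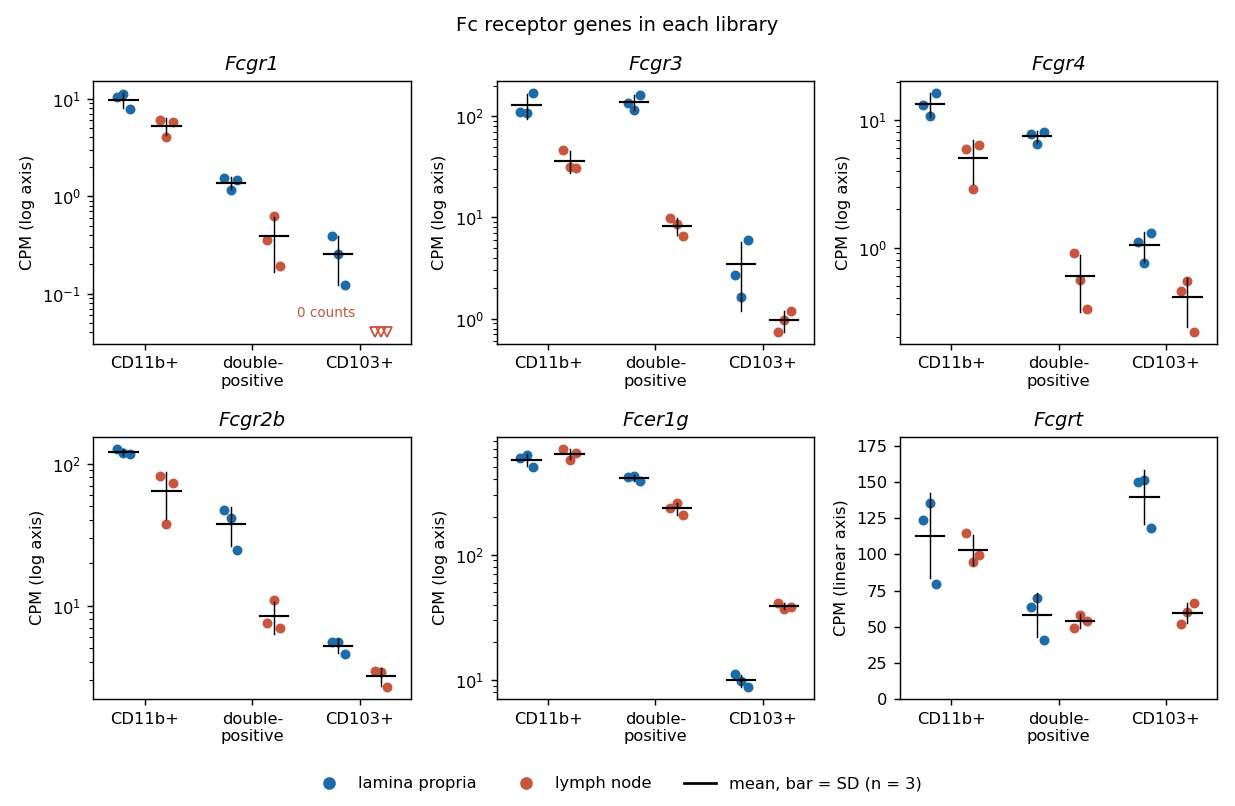
Level of each gene in CPM for the 18 libraries, by subset and tissue. Points are libraries in the order of replicates 1 to 3, horizontal lines are group means and vertical bars are SD (n = 3). The axis is logarithmic except for Fcgrt, and open triangles mark the lymph node CD103+ libraries with 0 counts of Fcgr1. Fcgr3 lies between 108 and 169 CPM in the lamina propria CD11b+ and double-positive libraries and at most at 46.0 CPM in all others.

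FcγRI, the high-affinity IgG receptor known as CD64, is a marker of macrophages and was stated as absent in the gate for the study's own lamina propria DCs. For the libraries described here no gate was given. Fcgr1 was measured at 10.4, 11.0 and 7.89 CPM in lamina propria CD11b+ DCs, and at 5.99, 4.09 and 5.76 CPM in lymph node CD11b+ DCs. The 2 groups did not overlap, but the difference did not pass the test (log2 fold change of -0.89, SE 0.35, adjusted p = 0.0561, edgeR).

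In double-positive DCs Fcgr1 was at 1.53, 1.15 and 1.46 CPM in the lamina propria and at 0.351, 0.628 and 0.190 CPM in the lymph node. It was called lower in the lymph node, with a log2 fold change of -1.78 (SE 0.40, adjusted p = 0.00142). Without both lymph node libraries that carried Xist and Ddx3y it no longer passed (-1.48, adjusted p = 0.011). In lamina propria CD103+ DCs the gene had 0.389, 0.258 and 0.122 CPM, from 11, 12 and 3 reads. No read of Fcgr1 was found among 81683304 in the 3 lymph node CD103+ libraries, which allows up to 0.0424 CPM over the group (3 counts, covering counting error only). The lamina propria CD103+ mean was 6.04-fold above this bound. That fold leaves out the error of the mean itself, which rested on 11, 12 and 3 reads. The order of the group means was lamina propria CD11b+, lymph node CD11b+, lamina propria double-positive, lymph node double-positive, lamina propria CD103+ and lymph node CD103+, and the fourth and the fifth overlapped.

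FcγRIII is a low-affinity activating receptor that binds immune complexes. Fcgr3 was the activating chain with the highest level. In lamina propria CD11b+ DCs it was at 109, 108 and 169 CPM, and in lamina propria double-positive DCs at 135, 115 and 161 CPM. These 2 groups overlapped (log2 fold change of 0.09, SE 0.29, adjusted p = 0.904). Lymph node CD11b+ DCs had 46.0, 31.2 and 30.8 CPM, and lymph node double-positive DCs 9.76, 8.55 and 6.55 CPM. All lymph node values lay below all lamina propria values of the same subset.

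The drop was 3.57-fold in CD11b+ DCs (log2 fold change of -1.84, SE 0.30, adjusted p = 0.000156) and 16.5-fold in double-positive DCs (-4.04, SE 0.34, adjusted p = 2.66e-08). Without both libraries that carried Xist and Ddx3y, Fcgr3 stood at -1.73 in CD11b+ DCs and at -3.90 in double-positive DCs and was called in both. In CD103+ DCs Fcgr3 was at 2.72, 1.65 and 6.03 CPM in the lamina propria and at 0.746, 0.969 and 1.18 CPM in the lymph node. It was called lower there too (-1.78, SE 0.45, adjusted p = 0.00242), but the size rested on lamina propria CD103+ replicate 3, the library with 6.03 CPM. Without this library the value was -1.17 (adjusted p = 0.013) and no longer passed, and without lymph node CD103+ replicate 1 it did not pass either (-1.65, adjusted p = 0.013). The same library had the highest sum of 6 markers of CD11b+ DCs among lamina propria CD103+ libraries (84.5 CPM, against 60.6 and 42.9 CPM). It also had the lowest Fcgr1, Fcgr2b and Fcer1g of its group (0.122, 4.57 and 8.81 CPM) and the lowest sum of monocyte markers (22.8 CPM). In lamina propria CD11b+ and double-positive DCs, replicate 3 was likewise the library with the most Fcgr3 (169 and 161 CPM). The part of other cells in the Fcgr3 level of lamina propria CD103+ replicate 3 was not tested.

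FcγRIV is an activating receptor for IgG2a/c and IgG2b that is known from monocytes, macrophages and neutrophils. Fcgr4 was at 13.2, 10.8 and 16.3 CPM in lamina propria CD11b+ DCs and at 7.74, 6.50 and 8.06 CPM in lamina propria double-positive DCs. In the lymph node the CD11b+ libraries had 5.93, 2.85 and 6.39 CPM and the double-positive libraries 0.898, 0.558 and 0.332 CPM. Every lymph node library was below those of the same subset in the lamina propria.

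Fcgr4 was 12.3-fold lower in lymph node than in lamina propria double-positive DCs (log2 fold change of -3.62, SE 0.40, adjusted p = 7.06e-07), and -3.35 without both libraries that carried Xist and Ddx3y. The difference in CD11b+ DCs was 2.65-fold (-1.41, SE 0.35, adjusted p = 0.00415). It no longer passed without lamina propria CD11b+ replicate 1 (adjusted p = 0.011) or replicate 3 (adjusted p = 0.019), or without lymph node CD11b+ replicate 2 (adjusted p = 0.024). In CD103+ DCs Fcgr4 was at 1.10, 0.752 and 1.30 CPM in the lamina propria and at 0.456, 0.548 and 0.219 CPM in the lymph node. The groups did not overlap, and the difference lay just outside the threshold (-1.34, SE 0.41, adjusted p = 0.0101). It was called without lamina propria CD103+ replicate 2 (-1.56) or lymph node CD103+ replicate 2 (-1.62). Without any 1 of the lymph node CD11b+ libraries, or without lymph node double-positive replicate 1 or 3, it was also called (-1.40 to -1.36). The difference depends on these libraries only through the joint fit of all groups, and the step responsible was not tested. Without both libraries that carried Xist and Ddx3y it was called as well (-1.34, adjusted p = 0.0083). Lamina propria CD103+, lymph node double-positive and lymph node CD103+ DCs, the lowest 3 in the order, overlapped with their neighbours.

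FcγRIIB, the inhibitory receptor, limits activation by immune complexes in DCs and B cells. Fcgr2b was at 128, 118 and 116 CPM in lamina propria CD11b+ DCs, and the lymph node CD11b+ libraries had 82.2, 37.7 and 72.8 CPM. The groups did not overlap, and the difference of 1.88-fold passed the p threshold but not the limit of 2-fold (log2 fold change of -0.91, SE 0.25, adjusted p = 0.00871). Without lymph node CD11b+ replicate 1 it passed both (-1.12). Lymph node CD11b+ replicate 2, with 37.7 CPM, was also the lowest of its group in Fcgr1, Fcgr4, Fcer1g and Fcgrt, and in the sum of macrophage markers described below (516 CPM).

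In double-positive DCs Fcgr2b was at 47.0, 41.4 and 24.8 CPM in the lamina propria and at 7.54, 11.0 and 6.93 CPM in the lymph node. It was 4.43-fold lower in the lymph node (log2 fold change of -2.15, SE 0.27, adjusted p = 3.31e-06), and -2.02 without both libraries that carried Xist and Ddx3y. CD103+ DCs had the least of it in both tissues, with 5.59, 5.52 and 4.57 CPM in the lamina propria and 3.48, 3.41 and 2.67 CPM in the lymph node (-0.71, SE 0.30, adjusted p = 0.0465, not called). In the order of group means only lymph node CD11b+ and lamina propria double-positive DCs overlapped.

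The balance of FcγRIIB to FcγRIII was followed as the log2 ratio of Fcgr2b to Fcgr3 counts within a library, which needs no scaling between libraries. In double-positive DCs the ratio was -1.90 ± 0.70 (SD, n = 3) in the lamina propria and 0.02 ± 0.37 in the lymph node, a shift of 1.92 towards the inhibitory receptor. In CD11b+ DCs it was -0.06 ± 0.42 and 0.78 ± 0.49. Neither subset overlapped between tissues. In CD103+ DCs the ratio was 0.79 ± 1.09 and 1.72 ± 0.52, with overlap. The exact permutation test (two-sided, 3 libraries against 3) gave p = 0.1 in CD11b+ and double-positive DCs, the smallest p it can give, and p = 0.2 in CD103+ DCs (adjusted over 3 subsets 0.15, 0.15 and 0.2). In each subset of the lamina propria, replicate 3 had the lowest ratio of the 3 libraries.

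**Figure D2:**
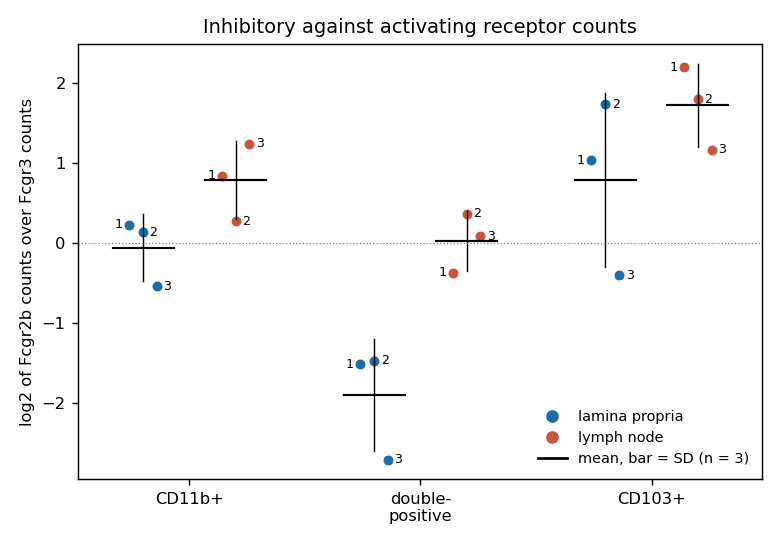
Log2 ratio of Fcgr2b to Fcgr3 counts in each library, by subset and tissue; numbers beside the points give the replicate, horizontal lines the group means and vertical bars SD (n = 3). The lamina propria double-positive libraries lie between -2.70 and -1.47, below every other library.

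The FcR gamma chain is needed for the surface expression and signalling of FcγRI, FcγRIII and FcγRIV, and it also serves receptors outside this family. Fcer1g was at 587, 627 and 504 CPM in lamina propria CD11b+ DCs and at 700, 573 and 642 CPM in lymph node CD11b+ DCs. The groups overlapped (log2 fold change of 0.16, SE 0.11, adjusted p = 0.264). In double-positive DCs it was at 420, 427 and 387 CPM in the lamina propria and at 237, 257 and 207 CPM in the lymph node. These groups did not overlap, and the difference of 1.76-fold stayed under the limit of 2-fold (-0.81, SE 0.11, adjusted p = 4.88e-06).

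CD103+ DCs went the other way. Fcer1g was at 11.1, 9.91 and 8.81 CPM in the lamina propria and at 41.2, 36.9 and 38.5 CPM in the lymph node. All 3 lymph node libraries were above all 3 lamina propria libraries, by 3.91-fold (log2 fold change of 1.97, SE 0.12, adjusted p = 2.56e-10). The rise was called under each alternative tried and without each library in turn, with log2 values of 1.87 to 2.05 when 1 library was left out. Fcer1g was the 1 member called higher in the lymph node in any subset.

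Marker genes of several cell types also differed between these CD103+ libraries. The sum of 7 markers of CD103+ (type 1) DCs was 8229 to 8719 CPM in the lamina propria and 2017 to 2083 CPM in the lymph node, with 6 of 7 called lower, and that of 5 conventional DC markers was 64453 to 68649 and 18939 to 19440 CPM, with 3 of 5 called lower. The sum of 8 mature DC markers was 1551 to 2156 and 26886 to 28068 CPM, with 7 of 8 called higher and 1 lower. T cell markers summed to 4.57 to 9.01 and 272 to 479 CPM, with 8 of 8 called higher, and NK cell markers to 155 to 170 and 201 to 332 CPM, with 4 of 5 tested called higher. The background was 19.8% of all genes called higher and 15.1% lower, and the part of these cells or states in the level of Fcer1g was not tested.

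The ligand-binding chains were also set against the gamma chain. Fcgr1, Fcgr3 and Fcgr4 together, per kb of exon, amounted to 13.9% ± 5.03 (SD, n = 3) of Fcer1g in lamina propria CD11b+ DCs, 18.3% ± 4.00 in double-positive DCs and 26.7% ± 16.3 in CD103+ DCs. The last mean rested on replicate 3: the 3 libraries had 20.4, 14.6 and 45.3%, and without replicate 3 the mean was 17.5%, below that of double-positive DCs. In the lymph node the same shares were 3.64% ± 0.473, 2.01% ± 0.337 and 1.99% ± 0.340. The lowest lamina propria library had 10.4% and the highest lymph node library 4.19%, so that the tissues did not overlap in any subset. This share was chosen after the values were seen and was not tested.

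FcRn, encoded by Fcgrt, had a pattern of its own. In CD103+ DCs it was at 150, 151 and 118 CPM in the lamina propria and at 52.1, 60.2 and 66.1 CPM in the lymph node, a drop of 2.35-fold without overlap (log2 fold change of -1.23, SE 0.20, adjusted p = 3.65e-05). In CD11b+ DCs the libraries had 124, 135 and 79.4 CPM in the lamina propria and 114, 94.6 and 99.7 CPM in the lymph node, and the groups overlapped (-0.13, SE 0.19, adjusted p = 0.629). Double-positive DCs had 63.7, 69.7 and 41.0 CPM against 49.0, 58.4 and 53.9 CPM, again with overlap (-0.11, SE 0.19, adjusted p = 0.643).

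In the order of Fcgrt, the lamina propria CD103+, lamina propria CD11b+ and lymph node CD11b+ groups each overlapped with the next and stood above a lower set of lymph node CD103+ and both double-positive groups, which also overlapped with each other in turn. Replicate 3 was the lowest library in each subset of the lamina propria. B2m encodes the β2-microglobulin partner of FcRn and of MHC class I, and it rose in the lymph node in each subset. In CD103+ DCs it was called higher, with a mean of 2259 CPM in the lamina propria and 15765 CPM in the lymph node (log2 fold change of 2.80). It was also called higher in double-positive DCs (2.19). In CD11b+ DCs the rise stayed under the limit of 2-fold (0.93, adjusted p = 8.2e-06, edgeR).

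Over the 6 members, the comparison of lymph node with lamina propria called 0 members higher and 2 lower in CD11b+ DCs (Fcgr3 and Fcgr4), where 10.3% of all genes tested were called higher and 4.93% lower. In CD103+ DCs 1 member was called higher (Fcer1g) and 3 lower (Fcgr1, Fcgr3 and Fcgrt), where 19.8% and 15.1% of all genes were. Of these, Fcgr1 rested on 26 reads in 3 libraries against 0, entered the test through other groups, and had a fitted value that depends on the prior count, so that its call adds nothing to the bound given above. In double-positive DCs 0 were called higher and 4 lower (Fcgr1, Fcgr2b, Fcgr3 and Fcgr4), where 18.6% and 13.6% of all genes were. A gene was called at an adjusted p under 0.01 and a fold change over 2. In CD11b+ and double-positive DCs, 0 members were higher in the lymph node at an unadjusted p under 0.05 in edgeR, and DESeq2 called 0 higher. The median log2 fold change of the 6 members was -0.90, -1.28 and -1.96 in CD11b+, CD103+ and double-positive DCs, and that of all genes tested 0.03, 0.04 and 0.07. With Fcgr1 at its bound the median in CD103+ DCs was again -1.28. Leaving out single libraries moved the count in CD11b+ DCs between 1 and 3 and that in CD103+ DCs between 3 and 5, while 4 members were called in double-positive DCs in each case.

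Both lymph node libraries that carried Xist and Ddx3y were then left out together. In CD11b+ DCs the log2 fold change was -0.95 for Fcgr1, -1.01 for Fcgr2b, -1.60 for Fcgr4, 0.16 for Fcer1g and -0.11 for Fcgrt, and in double-positive DCs -0.73 for Fcer1g and -0.11 for Fcgrt. None of these calls changed, while Fcgr1 lost its call in double-positive DCs as given above, leaving 3 members called there. In the 3 comparisons of subsets within the lymph node no call of a member changed either. The shift in the ratio of Fcgr2b to Fcgr3 was 0.61 in CD11b+ and 1.89 in double-positive DCs, and the activating chains amounted to 3.76% and 2.14% of Fcer1g in these lymph node groups.

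**Figure D3:**
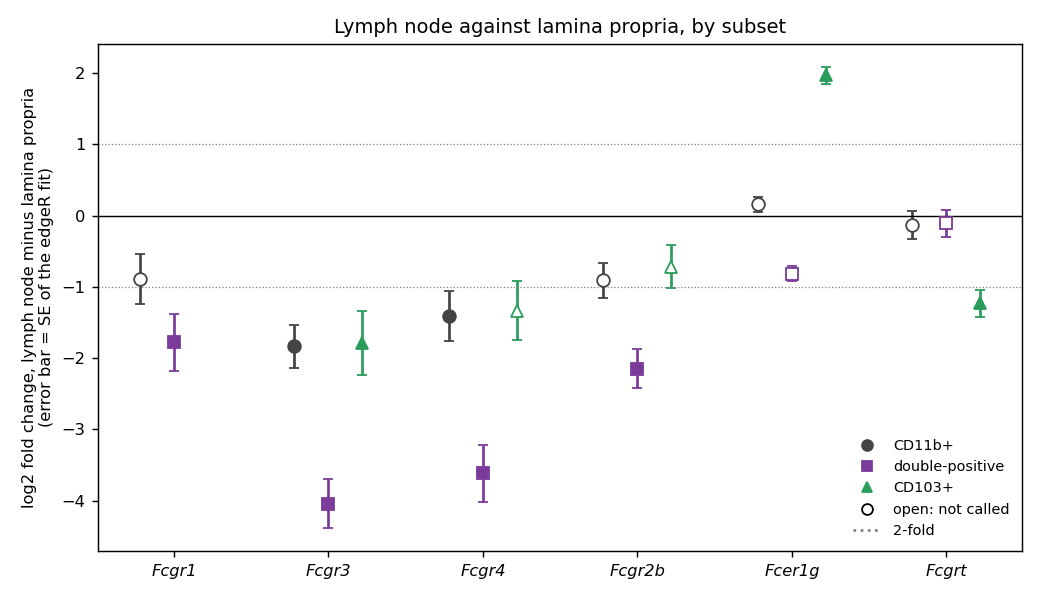
Log2 fold change of lymph node against lamina propria for each gene in the 3 subsets. Error bars are the SE, computed from the log2 fold change and the F statistic of the edgeR test. Filled symbols were called, and dotted lines mark 2-fold. Fcgr1 in CD103+ DCs is not drawn because the lymph node libraries had 0 counts. Double-positive DCs show the lowest values for Fcgr3 (-4.04) and Fcgr4 (-3.62), and Fcer1g in CD103+ DCs is the one symbol above the upper line (1.97).

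Whether the tissue difference itself varied between the subsets was tested with an F test on the interaction of tissue and subset, where a gene was called at an adjusted p under 0.01 whatever its fold change. It was called for 5 of 6 members, where 31.5% of all genes tested were called. The adjusted p was 4.32e-09 for Fcer1g, 0.000973 for Fcgr3, 0.00303 for Fcgr4, 0.0038 for Fcgrt and 0.00576 for Fcgr1, and Fcgr2b missed the threshold at 0.0106. The value of Fcgr1 includes the group at 0 counts and rests on few reads, 26 in lamina propria CD103+ and 31 in lymph node double-positive DCs. The count fell to 3 without both libraries that carried Xist and Ddx3y, when Fcgr4 (adjusted p = 0.02) and Fcgrt (adjusted p = 0.011) no longer passed. It was also 3 without lamina propria CD103+ replicate 1 or 2, or without lymph node CD103+ replicate 1. Fcgr3 and Fcer1g were called in all of these cases.

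The subsets were then compared within each tissue, in comparisons that share libraries with one another and with those above. In the lamina propria, 5 members were called lower in CD103+ than in CD11b+ DCs and 0 higher, where 10.6% of all genes were called lower and 5.07% higher. Fcer1g had the lowest value (log2 fold change of -5.85, SE 0.13, adjusted p = 1.81e-14), ahead of Fcgr3 at -5.27, Fcgr1 at -5.21, Fcgr2b at -4.52 and Fcgr4 at -3.69. Fcgrt was at 0.31 with overlap (adjusted p = 0.23).

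Lamina propria double-positive DCs were then set against both other subsets. Against CD11b+ DCs, 2 members were called lower and 0 higher (3.67% and 1.14% of all genes), Fcgr1 at -2.82 (SE 0.37, adjusted p = 0.00015) and Fcgr2b at -1.68 (SE 0.26, adjusted p = 0.000293). Fcgr4 was at -0.85 (adjusted p = 0.121), and Fcer1g (-0.48) and Fcgrt (-0.96) were under the limit of 2-fold. Fcgrt passed it without lamina propria CD11b+ replicate 3 (-1.16), or without double-positive replicate 1 (-1.03) or 2 (-1.11). Against CD103+ DCs, 5 members were called higher, where 8.1% of all genes were, with Fcer1g at 5.37 and Fcgr3 at 5.36. Fcgrt was the 1 member called lower (-1.27, SE 0.20, adjusted p = 7.08e-05), where 5.52% of all genes were. Pairing the lamina propria libraries by replicate number left these calls as they were.

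In the lymph node, 5 members were called lower and 0 higher in double-positive than in CD11b+ DCs, where 9.82% and 6.92% of all genes were, with Fcgr1 at -3.71, Fcgr4 at -3.06, Fcgr2b at -2.91, Fcgr3 at -2.12 and Fcer1g at -1.45. Fcgrt, at -0.94, passed the limit of 2-fold without lymph node CD11b+ replicate 2 (-1.02) or double-positive replicate 2 (-1.01). CD103+ DCs against CD11b+ DCs gave 5 members called lower and 0 higher, where 15.6% and 10.2% of all genes were. The Fcgr1 mean of lymph node CD11b+ DCs was 124-fold above the bound of 0.0424 CPM for the lymph node CD103+ libraries, which were at 0. Fcgr3 was at -5.22 in that comparison. Double-positive against CD103+ DCs gave 4 members called higher and 0 lower, where 4.69% and 1.84% of all genes were: Fcgr3 at 3.10, Fcer1g at 2.59, Fcgr2b at 1.41 and Fcgr1. Fcgr1 rested on 31 reads against 0. Its double-positive mean was 9.18-fold above that bound, a fold that leaves out the error of the mean itself. Fcgr4 did not pass (0.55, SE 0.43, adjusted p = 0.4). The call of Fcgr2b was lost without lymph node CD103+ replicate 3 or lymph node double-positive replicate 2 (adjusted p = 0.012 in both).

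To compare the genes with one another, CPM were divided by the length of the annotated exons in kb. Fcer1g ranked first in 5 of 6 groups, from 44.5 CPM per kb in lymph node CD103+ DCs to 730 CPM per kb in lymph node CD11b+ DCs. In lamina propria CD103+ DCs Fcgrt ranked first, at 66.5 ± 8.88 CPM per kb (SD, n = 3), against 11.4 ± 1.31 for Fcer1g. There it made up 81.4% of the summed level of the 6 genes, as against 4.69% to 8.52% in the CD11b+ and double-positive groups and 38.1% in lymph node CD103+ DCs. Fcgr3 reached 13.4% of the sum in lamina propria double-positive DCs and 1.59% in lymph node double-positive DCs. Fcgr1 had the lowest level per kb in every group, and Fcgr2b was below Fcgr3 in each. That last order turned in lymph node CD103+ DCs, to 0.900 CPM per kb for Fcgr2b and 0.717 for Fcgr3, when the longest transcript was taken as the length.

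**Figure D4:**
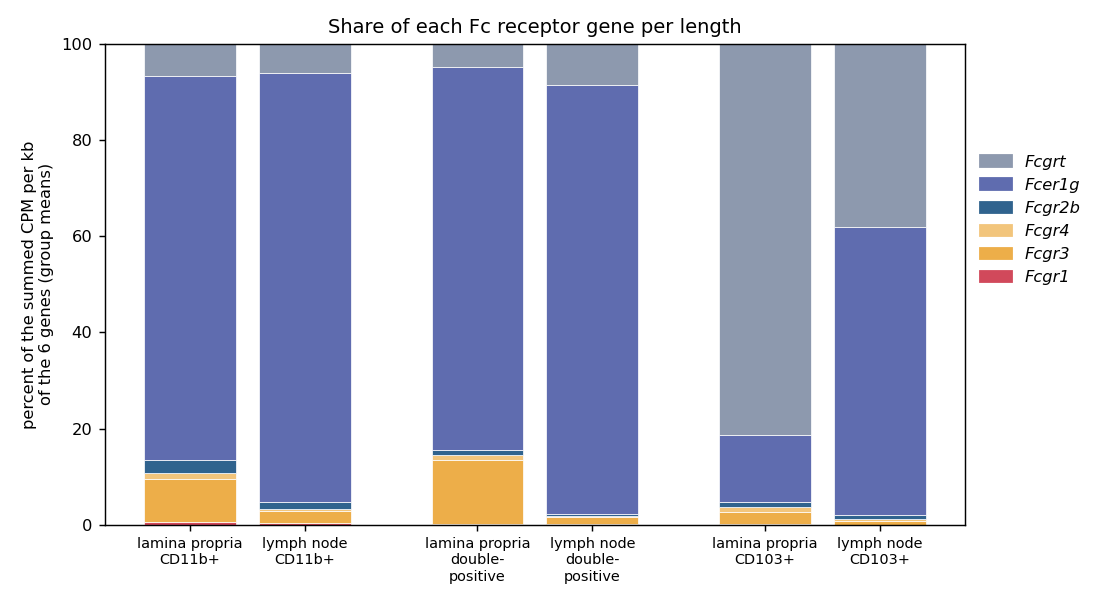
Share of each gene in the summed CPM per kb of the 6 Fc receptor genes, in percent, from the means of the 3 libraries of each group. Fcer1g takes 80.1% in lamina propria CD11b+ DCs and 13.9% in lamina propria CD103+ DCs, where Fcgrt takes 81.4%.

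Among 8669 genes with a mean of at least 10 CPM, those other than the 6 members with the pattern most like each member were found by Pearson's r of log2 CPM over the 18 libraries, as a description of libraries that share groups and depth. Fcgr3 was most like Itgam (0.982), Clec4n (0.981), which encodes the C-type lectin Dectin-2, and Cd300a (0.980), and Itgam is the gene of the sort marker CD11b. Fcer1g was most like Sirpa (0.992), a surface receptor of CD11b+ DCs, Gm15448 (0.986) and Spns3 (0.985). Fcgr2b was most like Ms4a4a (0.981), Lat2 (0.971) and the scavenger receptor gene Msr1 (0.965). Fcgr1 was most like Mgat1 (0.968), Paox (0.962) and Matk (0.961), and Fcgr4 most like BE692007 (0.979), Zfp36l2 (0.969) and Emilin2 (0.969). The values for Fcgrt were lower, with Pstpip1 (0.939), Tifa (0.936) and Zfp422 (0.930). Within the set, r was 0.971 for Fcgr1 and Fcgr2b, 0.908 for Fcgr2b and Fcgr3, 0.811 for Fcgr3 and Fcer1g, and -0.21 for Fcer1g and Fcgrt.

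The kinases and adaptors that carry the ITAM signal were followed in the same comparisons, beside 4.93%, 15.1% and 13.6% of all genes called lower and 10.3%, 19.8% and 18.6% called higher in CD11b+, CD103+ and double-positive DCs. Of 14 such genes, all tested, 0 were called higher in any subset, and 1, 8 and 6 were called lower in the 3 subsets. The 1 of 14 in CD11b+ DCs is near the share over all genes. Card9, an adaptor downstream of Syk, was called lower in all 3 (log2 fold change of -1.50, -1.04 and -1.72). Plcg2, Lcp2 and Btk were called lower in CD103+ (-1.58, -1.63 and -2.53) and double-positive DCs (-1.04, -1.74 and -1.19). Syk itself was called in none (-0.48, -0.81 and -0.18). The median of the list was -0.25, -1.04 and -0.84, beside 0.03, 0.04 and 0.07 for all genes tested.

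Of 10 genes of inhibitory signalling, 2, 4 and 3 were called higher and 0, 2 and 3 lower in CD11b+, CD103+ and double-positive DCs, beside the same shares over all genes, to which the 2 of 10 lower in CD103+ DCs are near. Inpp5d, which encodes the phosphatase SHIP-1 that FcγRIIB recruits, was called lower in CD103+ (-2.34) and double-positive DCs (-1.38). Csk, the kinase that restrains Src family kinases, was also called lower in both (-1.57 and -1.77). Dok1 (1.04, 3.23 and 2.19) and Cblb (1.95, 3.80 and 3.93), an adaptor and a ubiquitin ligase, were called higher in all 3 subsets. The list's median was -0.34, 0.23 and 0.23.

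Fcer1g also pairs with other receptors, of which 7 were listed and 6 tested. In each subset 3 were called higher, and 1, 0 and 1 lower in CD11b+, CD103+ and double-positive DCs. Over all genes tested, 10.3%, 19.8% and 18.6% were called higher and 4.93%, 15.1% and 13.6% lower. The 1 of 6 lower in double-positive DCs is near that share. Clec4n fell with Fcgr3 in CD11b+ (-1.47) and double-positive DCs (-4.74), from a mean of 151 to 5.62 CPM in the latter. Tarm1 was called higher in all 3, and so were Ncr1 and Klrb1c, receptors of NK cells. Summed markers of NK cells were at 248 to 379 CPM in lymph node CD11b+ DCs and at 119 to 212 CPM in lamina propria CD11b+ DCs, and in double-positive DCs they went from 26.3 to 47.6 CPM in the lamina propria to 160 to 212 CPM in the lymph node. T cell markers summed to 12.6 to 30.1 and 234 to 434 CPM in CD11b+ DCs and to 6.42 to 15.3 and 221 to 381 CPM in double-positive DCs. The part of NK or T cells in the levels of Fcgr3 and Fcer1g, which NK cells also express, was not tested. The medians were 1.08, 2.60 and 2.40. Of the 3 other adaptors with signalling motifs, 2, 2 and 1 were called higher and none lower, beside the same shares over all genes. Tyrobp (DAP12) was not called in any subset (-0.55, 0.51 and -0.93), Cd247, an adaptor of T and NK cells, was called higher in all 3, and Hcst was called higher in CD11b+ (1.36) and CD103+ DCs (2.77). The median of the 3 was 1.36, 2.77 and 0.58.

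Of 13 other Fc receptors and Fc-binding proteins, 11 were tested, and 4, 5 and 5 were called higher and 1, 3 and 1 lower. Over all genes tested, 10.3%, 19.8% and 18.6% were called higher and 4.93%, 15.1% and 13.6% lower in CD11b+, CD103+ and double-positive DCs. The 1 of 11 lower in double-positive DCs is near that share. Fcmr, the IgM receptor, was called higher in all 3 subsets (3.94, 5.47 and 5.65) at a mean of at most 2.69 CPM. Fcer2a, the low-affinity IgE receptor, was called higher in CD103+ (4.14) and double-positive DCs (2.74). Fcrl1 was called higher in CD11b+ DCs (2.38) and lower in CD103+ DCs (-2.28). Fcer1a, the IgE-binding chain that pairs with the gamma chain on mast cells and basophils, had a mean of 6.00 CPM in lymph node CD11b+ DCs and at most 0.988 CPM in the other groups. It was called higher in the lymph node in CD11b+ (8.57) and double-positive DCs (7.82). Mast cell and basophil markers summed to 155, 21.7 and 28.1 CPM in lymph node CD11b+ DCs and to at most 3.35 CPM in the lamina propria. In lymph node double-positive DCs they summed to 21.9, 5.20 and 8.36 CPM. In both subsets 3 of 5 tested were called higher. Lymph node CD11b+ replicate 1, with 155 CPM, also had the highest Fcgr1, Fcgr3, Fcgr2b, Fcer1g and Fcgrt of its group, and the part of these cells in the levels was not tested. The median of the 11 was 0.93, -0.60 and 1.89.

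Transcripts of the antibody ligands themselves were called higher in the lymph node for part of the genes. Of 8 immunoglobulin heavy chain constant genes 7 were tested, and 5, 3 and 4 were called higher and 0, 1 and 0 lower, with medians of 4.53, 0.09 and 3.45. Over all genes tested, 10.3%, 19.8% and 18.6% were called higher and 4.93%, 15.1% and 13.6% lower in CD11b+, CD103+ and double-positive DCs. The 1 of 7 lower in CD103+ DCs is near that share. Ighg2b, Ighg3 and Ighd were called higher in all 3 subsets (Ighg2b by 4.53, 5.67 and 5.46), and Ighg2c in CD11b+ (5.05) and double-positive DCs (6.94). Igha had the highest mean of the 8 over all libraries (2216 CPM) and was called in no subset (-0.34, -0.85 and 0.16). Beside this, B cell markers summed to 168 to 236 CPM in lymph node CD11b+ DCs and to 45.3 to 52.4 CPM in lamina propria CD11b+ DCs, and 7 of 7 tested were called higher. The sum of 4 plasma cell markers was lower in the lymph node in this subset, at 1183 to 1319 CPM against 1401 to 1797 CPM. Of these markers, 1 was called higher and 0 lower. The part of B cells in the level of Fcgr2b, which they express, was not tested. The mean of Fcgr2b was 64.2 CPM in those lymph node libraries and 121 CPM in the lamina propria.

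Macrophages express FcγRI, FcγRIII and FcγRIV, and macrophage markers were therefore read beside these genes. The sum of 10 macrophage markers was 1131 to 2233 CPM in lamina propria CD11b+, 438 to 464 in double-positive and 44.4 to 54.1 in CD103+ DCs, and 516 to 882, 129 to 156 and 15.1 to 20.1 CPM in the lymph node, so that the tissues did not overlap in any subset. No marker was at 0 throughout a group. In the tissue comparison 5, 2 and 6 of 10 were called lower and 1, 1 and 0 higher in CD11b+, CD103+ and double-positive DCs, beside 4.93%, 15.1% and 13.6% of all genes lower and 10.3%, 19.8% and 18.6% higher, so that in CD103+ DCs the 2 of 10 lower are near the share over all genes and the 1 of 10 higher is under it. C1qa, a defining gene of tissue macrophages, had a mean of 196 CPM in lamina propria CD11b+ DCs, 19.9 in double-positive and 2.97 in CD103+ DCs, and 39.4, 9.09 and 1.19 CPM in the lymph node.

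Lamina propria CD11b+ replicate 3 had the highest macrophage sum (2233 CPM) with the highest Fcgr3 and Fcgr4 of its group and the lowest Fcgr1 and Fcgr2b. In double-positive DCs the mean of Fcgr3 was 137 CPM in the lamina propria and 8.29 CPM in the lymph node, beside macrophage sums of 438 to 464 and 129 to 156 CPM. Monocyte markers (412 to 488 CPM in lamina propria CD11b+ DCs and 182 to 213 in lymph node CD11b+ DCs) and neutrophil markers (41.7 to 154 and 33.2 to 53.8 CPM) were also present. In CD11b+ DCs the monocyte markers were split, with 2 of 5 tested called higher in the lymph node and 2 lower. Of 6 neutrophil markers, 0 were called higher and 1 lower. Over all genes 10.3% were called higher and 4.93% lower. In double-positive DCs monocyte markers went the other way from Fcgr3, from 5.64 to 10.9 CPM in the lamina propria to 37.0 to 48.0 CPM in the lymph node, with 2 of 5 tested called higher and 0 lower. Neutrophil markers summed there to 17.2 to 20.8 and 8.02 to 11.4 CPM. Markers of CD11b+ DCs moved the same way, from 3103 to 3752 CPM in lamina propria double-positive to 198 to 243 CPM in lymph node double-positive DCs. The summed markers of mature DCs moved the opposite way, from at most 2684 CPM in the lamina propria to 4052 to 28068 CPM in the lymph node. In each subset 7 of these 8 markers, which include Ccr7, were called higher. Over all genes 10.3%, 19.8% and 18.6% were called higher in CD11b+, CD103+ and double-positive DCs. In CD103+ DCs 1 of the 8 was called lower, near the 15.1% of all genes, and 0 in the other subsets. The part of macrophages, of maturation or of the DC subsets' own makeup in the levels of the Fc receptor genes was not tested.

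**Figure D5:**
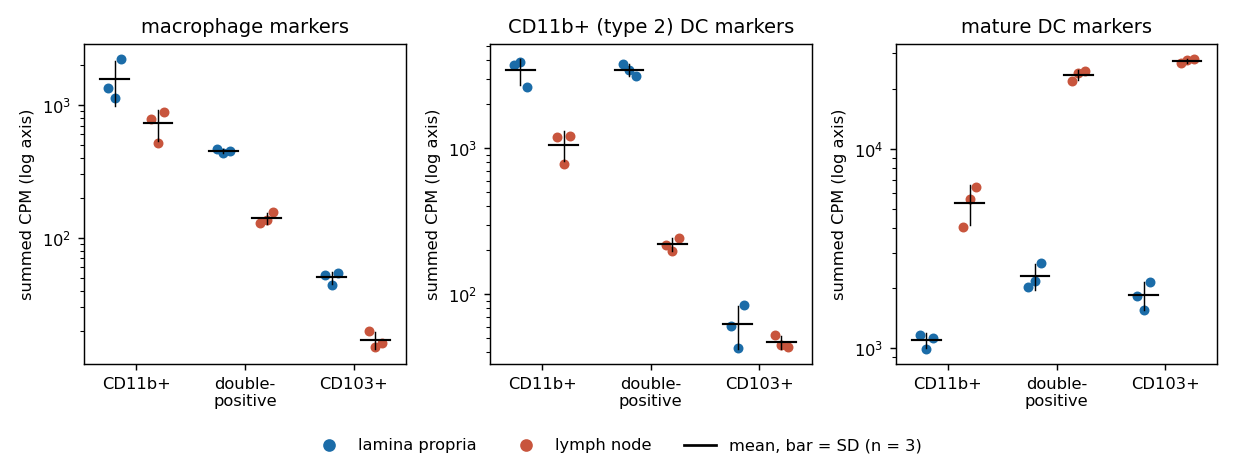
Summed CPM of 10 macrophage, 6 CD11b+ DC and 8 mature DC marker genes in each library, by subset and tissue, on logarithmic axes. Points are libraries, horizontal lines group means and vertical bars SD (n = 3). The macrophage sums of the lymph node lie below those of the lamina propria in each subset, and the mature DC sums lie above.

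The promoters were read for 3 short motifs of myeloid and interferon-driven transcription. All 6 had a promoter of 300 bases (250 before to 50 after the start) in RefSeq, GRCm38.p6. AGGAAG, the core bound by PU.1, was found on either strand in 35.1% of 27025 such promoters, TTCNNNGAA (GAS) in 8.47% and GAAANNGAA (ISRE core) in 8.57%. Fcgr1 held 2 AGGAAG matches, which overlap, and 1 GAS match. Fcer1g held 2 AGGAAG matches, Fcgr3 held 1, and Fcgr4 held 1 together with 1 ISRE core match. For Fcgr3, 2 promoters were listed and only the first was read. It is at chr1:171059354-171059653 on the minus strand, inside the annotated gene. Fcgr2b and Fcgrt held none of the motifs in this window. Shown are the 120 bases before to the 10 after the start of the high-affinity receptor, of the gamma chain and, as the member with another pattern, of Fcgrt, with matches in capitals; Fcgr1 is at chr3:96293960-96294089, Fcer1g at chr1:171234340-171234469 and Fcgrt at chr7:45103813-45103942, all on the minus strand and written 5′ to 3′ along the gene.
Fcgr1 promoter: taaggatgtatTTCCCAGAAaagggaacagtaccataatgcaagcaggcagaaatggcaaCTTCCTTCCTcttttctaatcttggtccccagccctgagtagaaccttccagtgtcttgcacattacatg
Fcer1g promoter: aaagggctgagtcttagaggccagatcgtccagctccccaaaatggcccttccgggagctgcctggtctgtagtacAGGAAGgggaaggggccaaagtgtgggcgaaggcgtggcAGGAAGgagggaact
Fcgrt promoter: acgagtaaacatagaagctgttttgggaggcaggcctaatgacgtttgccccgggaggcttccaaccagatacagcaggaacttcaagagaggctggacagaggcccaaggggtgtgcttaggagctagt

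A match of a motif is a description of the sequence, and binding of a factor was not measured. In Fcgr1 the matches began 109 (GAS), 60 and 56 bases before the start, and in Fcer1g 44 and 5 bases before it.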

How the data were processed

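RNA of sorted DCs was sequenced in 18 libraries (Smart-seq v4, read pairs of 75 bases). The authors deposited raw read counts per gene, without normalization, in 1 table. Alignment and counting of these libraries are not given in full in the sources used here: the submitters' processing notes name STAR 2.6, FastQC 0.11.7 and GRCm38, and for its own DC libraries the study used uniquely aligned reads and counting that ignored strand. Counting without strand does not separate a gene from an antisense partner.

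Symbols were matched by Ensembl identifier (54079 of 54232 genes). Counts were fitted with edgeR 4.0.16 (TMM, filterByExpr, quasi-likelihood test, 18 libraries, 6 group means), with Benjamini-Hochberg adjustment over 17074 genes. The SE of a log2 fold change was its absolute value divided by the square root of the F statistic of the edgeR test. CPM used TMM-scaled library sizes. Values are mean ± SD of 3 libraries; intervals for counts of 0 used 3 counts. DESeq2 1.42.0 was an alternative. The test was checked on simulated counts. The members, gene lists and tests were chosen with earlier results of these data known. Named pathway genes are those called in most tissue comparisons, then by level, up to 4 a list, with B2m, Syk, Inpp5d and Tyrobp always. Other genes (Fcer1a, Igha, C1qa, Ccr7, Zbtb46) were named after their values were seen.

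Libraries of a group differed by more than sampling noise (chi-square per gene of 14.9 to 64.9), so that none was counted as a duplicate. Replicate numbers paired the libraries (every r of deviations over 0.1) for lamina propria CD103+ against CD11b+ DCs (0.15 to 0.21) and double-positive against CD103+ DCs (0.13 to 0.19) alone. Tried as alternatives were DESeq2 size factors, total counts, no filter or 100 counts in 3 libraries, an adjusted p of 0.05, DESeq2, equal depth, only the groups compared, a replicate block, and leaving out libraries.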

Additional observations from a re-analysis of the deposited data

Results flagged for a closer look

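The difference between lymph node and lamina propria was not the same in the 3 DC subsets for 5 of the 6 Fc receptor genes, by the F test of the interaction in edgeR with adjustment over all genes tested. The adjusted p was 4.3e-09 for Fcer1g, which was higher in the lymph node in CD103+ DCs (log2 fold change of 1.97) and lower in double-positive DCs (-0.81). It was 0.00097 for Fcgr3 and 0.003 for Fcgr4, both lower in the lymph node in each subset with the lowest values in double-positive DCs (-4.04 and -3.62). It was 0.0038 for Fcgrt, which was lower in CD103+ DCs (-1.23) and overlapped between tissues in the other subsets. It was 0.0058 for Fcgr1, which had 0 counts in lymph node CD103+ DCs and 26 reads in lamina propria CD103+ DCs, so that this test rests on few reads. Across all genes tested, 31.5% were called by the same test. Fcgr1 lost the call when 1 of 9 libraries was left out (lamina propria and lymph node CD11b+ replicates 1 and 3, lamina propria CD103+ replicates 1 and 2, and each lymph node CD103+ library), with adjusted p up to 0.015. Fcgrt lost it without lamina propria CD103+ replicate 1 or 2 or lymph node CD103+ replicate 1, and Fcgr4 without lymph node double-positive replicate 2 or 3. Fcgr2b gained it without lamina propria double-positive replicate 3, lymph node CD11b+ replicate 2 or lymph node double-positive replicate 2.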

How the results depend on the processing

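No called value changed direction. In CD11b+ DCs 1 member in place of 2 was called when the fit held only the libraries compared, since Fcgr4 missed the threshold (-1.42), and leaving out 1 library gave 1 to 3 members, with Fcgr4 at -1.61 to -1.12 and Fcgr2b at -1.12 to -0.64 (called without lymph node CD11b+ replicate 1). In CD103+ DCs Fcgr4, at an adjusted p of 0.0101, was called under total counts (-1.56), no filter (-1.39), 100 counts in 3 libraries (-1.33), an adjusted p of 0.05 (-1.34), DESeq2 (-1.30), equal depth (-1.69) and without both libraries that carried Xist and Ddx3y (-1.34), and lay at -1.62 to -1.06 when 1 library was left out. Fcgr3 lay at -2.19 to -1.17 there, losing the call without lamina propria CD103+ replicate 3 or lymph node CD103+ replicate 1. Without both libraries that carried Xist and Ddx3y, Fcgr1 in double-positive DCs (-1.48) was not called, and the F test called 3 members; it called 3 to 6 when 1 library was left out. Fewer libraries entered those fits; the cause was otherwise not tested.

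With the replicate number as a block, Fcgr3 stood at -1.81, -1.74 and -4.00 in CD11b+, CD103+ and double-positive DCs, and no call of a member changed in any comparison. Across tissues the libraries shared only a number. Total counts moved the median of all genes by 0.14, -0.21 and -0.17 (log2) in the 3 tissue comparisons and by -0.43 and -0.37 in lymph node CD103+ and double-positive against CD11b+ DCs, in both of which Fcgrt then passed the 2-fold limit (-1.22 and -1.30). All genes called in lamina propria double-positive against CD11b+ DCs numbered 821, but 506 with only the libraries compared and 1289 at an adjusted p of 0.05. Levels per kb of Fcgr2b, Fcgr3, Fcer1g and Fcgrt rose with the longest transcript as the length. Groups of 3 limit the permutation tests, and 4 to 18 reads per library limit Fcgr1 in lymph node double-positive DCs. Leaving out libraries from the share of the gamma chain was chosen after seeing the data.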
